A study of Saccharomyces cerevisiae with 8 samples.

Results

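Transcript levels of 7 genes of the yeast plasma membrane were followed, which encode the proton ATPases *PMA1* (YGL008C) and *PMA2* (YPL036W), the ATPase proteolipids *PMP1* (YCR024C-A) and *PMP2* (YEL017C-A), and the membrane proteins *HSP30* (YCR021C), *YRO2* (YBR054W) and *MRH1* (YDR033W). They were taken by their open reading frame (ORF) names from the 6152 ORFs of the deposited table, and all 7 had values in all 8 conditions. Earlier results of these data were known when the set was drawn up. *YRO2* and *MRH1* were chosen by their measured values at 1 h, which differ between the strains, so those values are described here and not tested.

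The conditions were *S. cerevisiae* CECT10094, a flor wine isolate that the study calls the ethanol tolerant one, and Temohaya-MI26, an isolate from agave fermentation, each in GPY medium with 10 or 0% (v/v) ethanol at an early and a late stage. The sample labels write PE35M and TEMOHAYA-26 for these strains. Early cells were taken at 1 h, and late cells at 28 h (CECT10094 with ethanol), 40 h (Temohaya-MI26 with ethanol) or 10 h (both strains without it), so that ethanol and hours of culture cannot be told apart late. The labels place the late cells in exponential growth and the methods after it. Cy5-labelled cDNA of a sample was hybridised to spotted arrays against a Cy3-labelled pool of all samples, with no dye swap, and the authors combined 3 slides per condition into 1 log2 ratio, 24 slides in all. With 1 column per condition no difference within a strain has a replicate check, and precision is limited by the few arrays. Columns held 5612 to 6115 ORFs, their medians lay between -0.22 and 0.32, and the lowest correlation between columns was -0.36 across ORFs, between Temohaya-MI26 with ethanol and CECT10094 without it, both at 1 h. The values are shares of labelled cDNA, so less transcript per cell and more of all other transcripts cannot be told apart.

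Pma1p is the main proton pump of the yeast plasma membrane. It uses ATP to export protons, which keeps the cytosol near neutral and drives the uptake of nutrients by proton symport. *PMA2* encodes a closely related minor pump, and Pmp1p and Pmp2p are very small proteolipids that bind Pma1p and modulate its activity. Hsp30p is a hydrophobic heat shock protein of the same membrane that is known to restrain Pma1p under stress, and *MRH1* and *YRO2* encode membrane proteins related to it, of which *YRO2* is a known target of the weak acid regulator Haa1p.

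After 1 h with ethanol the transcripts of both pumps were lower in both strains. *PMA1* had a log2 ratio to the pool of -1.67 with ethanol and 1.07 without it in CECT10094. In Temohaya-MI26 it had -1.17 with ethanol and 0.66 without it. Both values with ethanol lay below both values without it, and those 2 were the lowest of the 8 columns for this gene. The differences, 10 minus 0% ethanol, were -2.73 in CECT10094 and -1.82 in Temohaya-MI26. A difference was called where it lay outside limits set from the mean and standard deviation of all ORFs, which would hold 95% of a normal distribution. These limits are not a test. *PMA1* passed it in CECT10094, where the limit was -1.53, and stayed inside the limit of -2.21 in Temohaya-MI26.

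**Figure D1:**
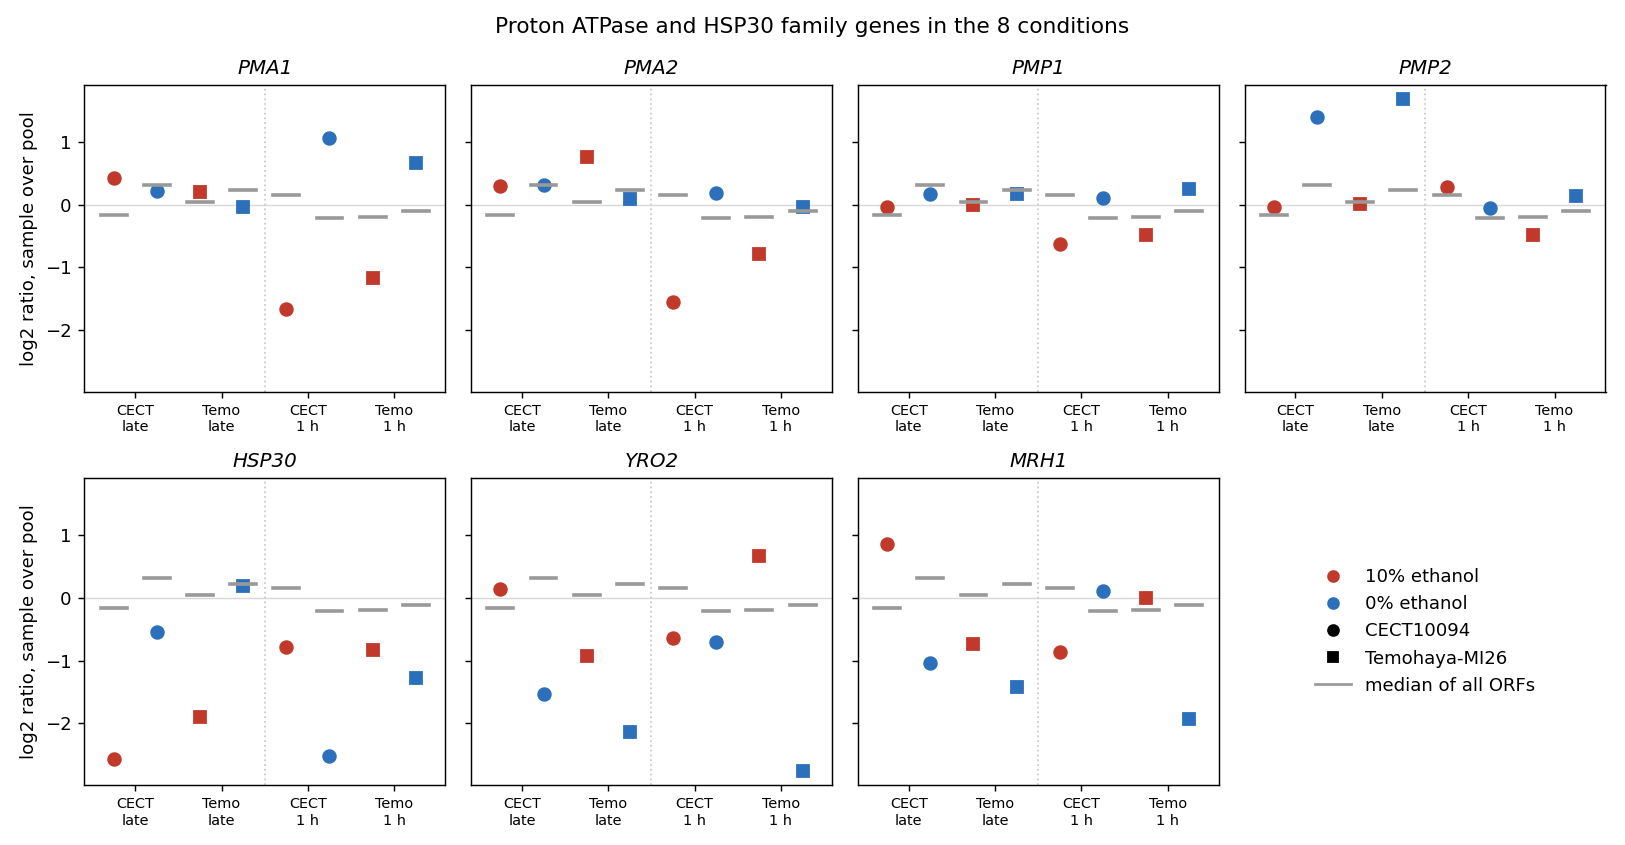
Log2 ratio of sample to pool (vertical axis) of the 7 genes in the 8 conditions, with late samples left of those of 1 h in every panel, 10% ethanol in red, 0% in blue, CECT10094 as circles, Temohaya-MI26 as squares and grey dashes for the median of all ORFs in that column. *PMA1* lies lowest in both red 1 h samples (-1.67 and -1.17), *HSP30* lies lowest in late CECT10094 with ethanol (-2.56), and *YRO2* runs between 0.67 and -2.76 in the 1 h samples of Temohaya-MI26.

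*PMA2* had the same order at 1 h, with smaller differences. Its log2 ratio was -1.56 with ethanol against 0.19 without it in CECT10094. In Temohaya-MI26 it was -0.79 against -0.04. The difference of -1.74 passed the limit in CECT10094, and that of -0.76 did not in Temohaya-MI26. In CECT10094 these were the 2 genes of the set called lower and none was called higher, where 3.53% of 6014 ORFs were called lower and 2.18% higher. None of the set was called lower in Temohaya-MI26, where 3.08% of 5872 ORFs were. The median difference of all ORFs was 0.42 in CECT10094 and -0.08 in Temohaya-MI26, which is not subtracted from the values of single genes. *PMA1* and *PMA2* are similar in sequence, so their spotted products may share signal, which was not tested.

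A change common to both strains was tested with limma, in which the strains serve as the repeats. Its p does not set the change against the spread of cultures. For ethanol effects the spread of a gene pools the disagreement between strains at both stages, with 2 degrees of freedom. It is drawn towards a prior from all ORFs with 9.17 degrees of freedom and a standard deviation of 0.38, which weighs more. At 1 h *PMA1* changed by -2.28 on the log2 scale (standard error 0.37, adjusted p = 0.00231 over all ORFs). *PMA2* changed by -1.25 (standard error 0.39, adjusted p = 0.0467 from limma). At this threshold of 0.05, 6.94% of 5905 ORFs were lower and 10.5% higher, and the median estimate of all ORFs was 0.18. The split of higher and lower calls depended on the scaling, with 622 and 410 as deposited, 597 and 633 with columns centred on their medians, 417 and 529 under quantile normalization and 561 and 603 with chromosome arms centred. Both calls kept their side of the threshold in the 6 alternatives run.

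In the late stage the pump transcripts stood close to each other with and without ethanol. *PMA1* had 0.42 with ethanol and 0.21 without it in CECT10094. It had 0.20 with ethanol and -0.03 without it in Temohaya-MI26. The limma estimate for *PMA1* was 0.22 (standard error 0.37, adjusted p = 0.738), where the median of all ORFs was -0.37. *PMA2* had 0.30 against 0.31 in CECT10094 and 0.75 against 0.08 in Temohaya-MI26, with an estimate of 0.33 (standard error 0.39, adjusted p = 0.62 from limma). Neither gene passed the late test, which does not show that their levels were equal.

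The ethanol difference of *PMA1* itself differed between the stages. The late difference minus that of 1 h was 2.50 (standard error 0.52, adjusted p = 0.00943 from limma), where the median of all ORFs was -0.60 and 4.38% of 5869 ORFs were called higher and 14.6% lower (257 and 857 as deposited, 515 and 527 with centred columns, 403 and 302 under quantile normalization, 499 and 479 with arms centred). For *PMA2* it was 1.58 (standard error 0.55, adjusted p = 0.0649), and it passed in each of the 5 alternatives, with adjusted p between 0.0257 and 0.0498. Within ethanol, *PMA1* stood higher late than at 1 h in both strains, by 2.09 in CECT10094 and 1.37 in Temohaya-MI26, with a common change of 1.73 (standard error 0.34, adjusted p = 0.0425 from limma) where 1.23% of 5999 ORFs were higher. With chromosome arms centred it was 1.66 and lost its call (adjusted p = 0.0585, with a range of 0.0281 to 0.0585 over the alternatives). *PMA2* stood higher late by 1.86 and 1.55, a common change of 1.70 (standard error 0.36, adjusted p = 0.0528). It passed under quantile normalization (adjusted p = 0.0379), over ORFs with all values (0.0357) and with arms centred (0.0418), in a range of 0.0357 to 0.0509. By the limits of single strains, *PMA1*, *PMA2* and *MRH1* (1.71) were called higher late and *HSP30* (-1.78) lower in CECT10094 with ethanol, beside 3.48% and 2.34% of 6067 ORFs. In Temohaya-MI26 with ethanol only *YRO2* was called, lower by -1.60, beside 3.12% of 5730 ORFs called higher and 2.18% lower. The *MRH1* and *YRO2* differences hold 1 h values that chose these genes, so they are a description only. Without ethanol *PMA1* stood lower late than at 1 h by -0.85 in CECT10094 and -0.69 in Temohaya-MI26 (common change -0.77, standard error 0.34, adjusted p = 0.116), while the median of all ORFs moved the other way, by 0.52. With columns centred this change was -1.20 and passed (adjusted p = 0.0465, with a range of 0.0465 to 0.129). Without ethanol none of the 7 genes passed the limits between the stages, against 2.89% of 5980 ORFs called higher and 2.86% lower in CECT10094, and 2.57% and 3.3% of 5568 ORFs in Temohaya-MI26.

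**Figure D2:**
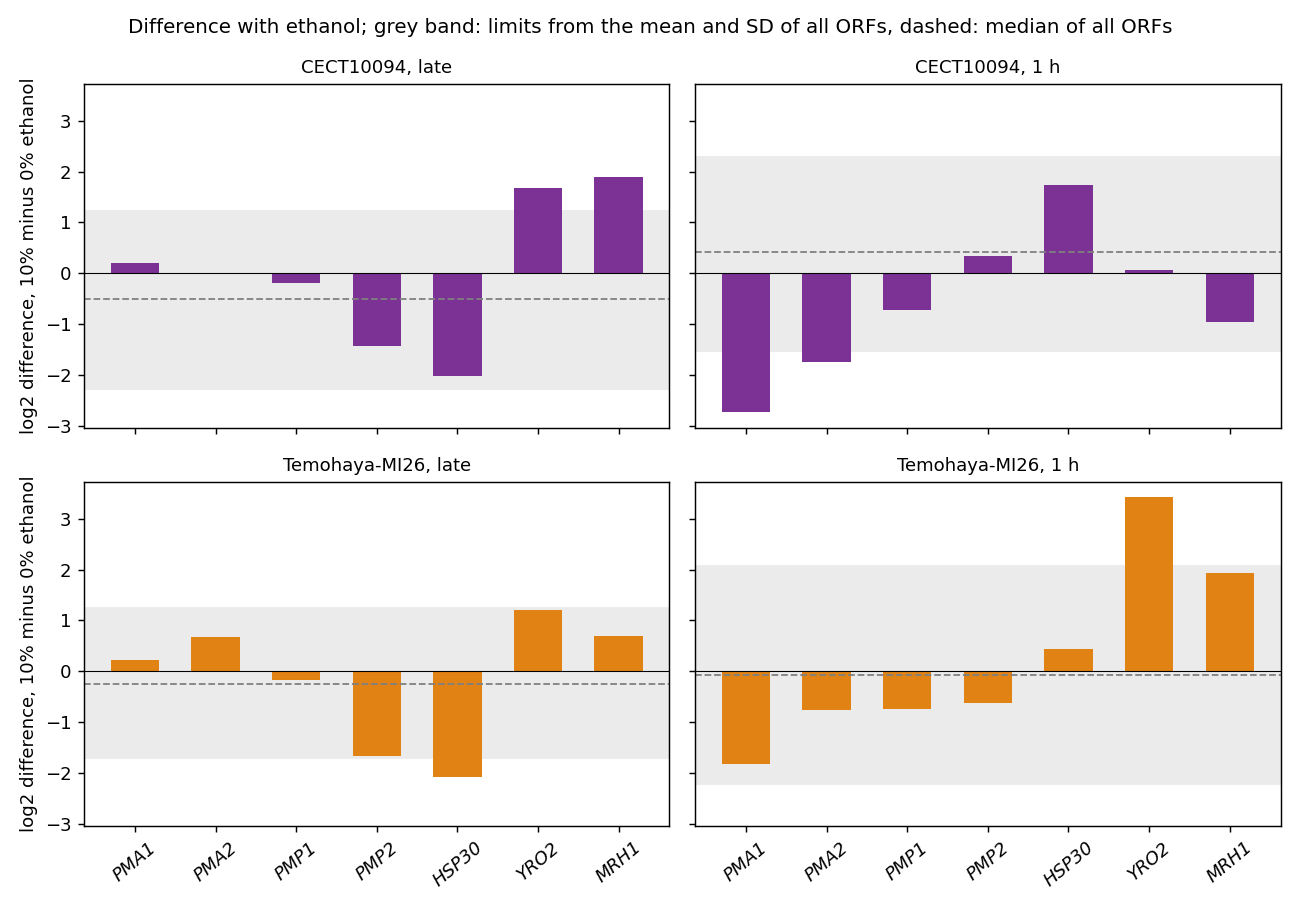
Log2 difference with ethanol, 10 minus 0% (vertical axis), of the 7 genes as bars from 0, for CECT10094 above and Temohaya-MI26 below, late at the left and 1 h at the right. The grey band spans the limits set from all ORFs and the dashed line is the median of all ORFs, and the bars that leave the band are *PMA1* and *PMA2* in CECT10094 at 1 h, *YRO2* in Temohaya-MI26 at 1 h, *YRO2* and *MRH1* in late CECT10094 and *HSP30* in late Temohaya-MI26.

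The proteolipid gene *PMP1* moved least of the set. At 1 h it had -0.62 with ethanol and 0.10 without it in CECT10094. In Temohaya-MI26 these were -0.49 with ethanol and 0.24 without it. Late, the values were -0.03 with ethanol and 0.17 without it in CECT10094, and -0.01 and 0.17 in Temohaya-MI26. Its range over the 8 columns, 0.87, was wider than that of only 13.9% of the 5359 ORFs with all values. The strains were close in every condition, with differences at 1 h of -0.72 in CECT10094 and -0.73 in Temohaya-MI26. The common change at 1 h was -0.73 (standard error 0.34) and did not pass the test (adjusted p = 0.173 from limma). The late change of -0.19 (standard error 0.34, adjusted p = 0.762) did not pass it either, and it was 0.14 with columns centred, so its sign follows the scaling.

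*PMP2*, whose product acts like Pmp1p, did not follow *PMP1*. Late, it had -0.03 with ethanol and 1.39 without it in CECT10094. In Temohaya-MI26 it had 0.01 with ethanol and 1.68 without it, the highest value of this gene. At 1 h it had 0.28 with ethanol and -0.06 without it in CECT10094, and -0.48 and 0.13 in Temohaya-MI26. Thus the samples without ethanol stood apart late and not at 1 h. The late change with ethanol was -1.55 in limma (standard error 0.37, adjusted p = 0.0328), where 7.01% of 5893 ORFs were lower and 0.815% higher (413 and 48 as deposited, 250 and 126 with columns centred, 29 and 37 under quantile normalization, 155 and 83 with arms centred). The call was lost with columns centred on their medians (-1.22, adjusted p = 0.0513), within chromosome arms (-1.30, adjusted p = 0.0564) and under quantile normalization (-0.80, adjusted p = 0.301), and its adjusted p ranged from 0.0174 to 0.301 over 6 alternatives. Without ethanol *PMP2* rose late over 1 h by 1.50 (standard error 0.35, adjusted p = 0.016), where 22.7% of 5954 ORFs did so and 4.75% fell (1352 and 283 as deposited, 762 and 593 with columns centred, 96 and 177 under quantile normalization, 715 and 584 with arms centred). Under quantile normalization this was 0.70 (adjusted p = 0.202, with a range of 0.0108 to 0.202). No PMP gene passed the limits in any of the 4 ethanol comparisons as deposited. *PMP2* in late Temohaya-MI26 (-1.67) lay just inside its limit of -1.71 and passed with limits from the median absolute deviation, with a fixed limit of 1 and with arms centred (-1.64).

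**Figure D3:**
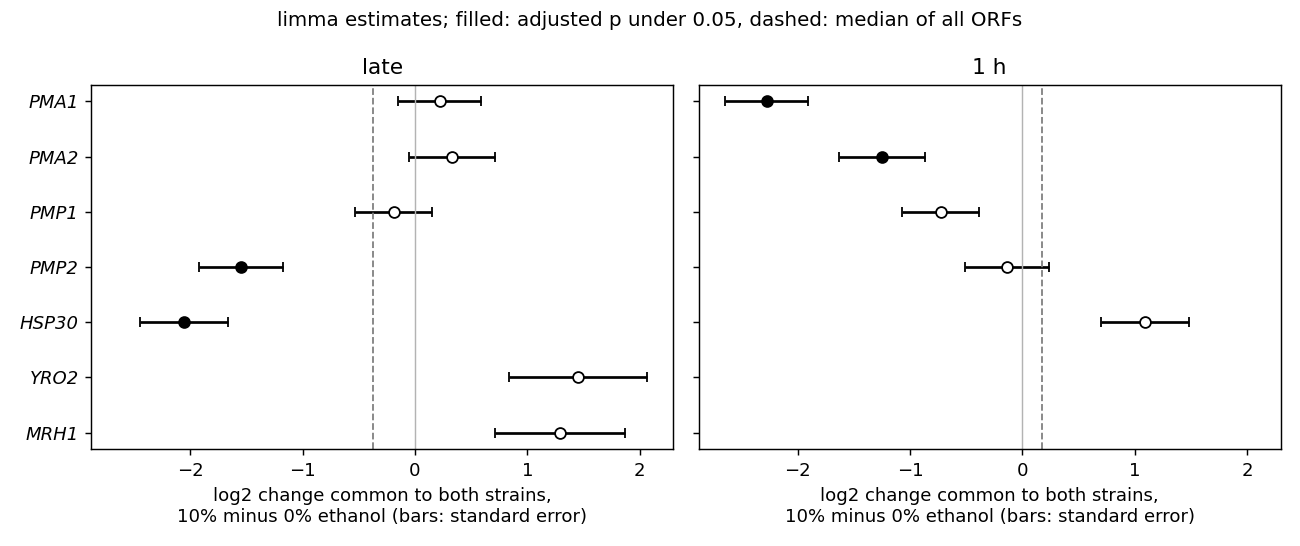
Change common to both strains, 10 minus 0% ethanol, from limma (horizontal axis, log2, bars for the standard error), late at the left and 1 h at the right, with filled points for an adjusted p under 0.05 and a dashed line for the median of all ORFs. *PMP2* (-1.55) and *HSP30* (-2.05) are filled late, *PMA1* (-2.28) and *PMA2* (-1.25) at 1 h, and *YRO2* and *MRH1* are not drawn at 1 h because those values chose them. The 1 h values of *YRO2* and *MRH1* also enter their late bars.

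*HSP30* lay in opposite order at the 2 stages. At 1 h it had -0.79 with ethanol and -2.52 without it in CECT10094, and -0.83 and -1.27 in Temohaya-MI26. Both samples with ethanol stood above both without it, and they nearly coincided while those without ethanol lay apart. The differences of 1.74 and 0.45 were inside the limits, and the common change of 1.09 (standard error 0.39) did not pass the test (adjusted p = 0.0798 from limma). Late it had -2.56 with ethanol and -0.54 without it in CECT10094, and -1.90 and 0.18 in Temohaya-MI26. Here both samples with ethanol stood below both without it. The differences were -2.03 in CECT10094, inside the limit of -2.27, and -2.08 in Temohaya-MI26, past the limit of -1.71, where 2.51% of 5498 ORFs were called lower and 3.04% higher.

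Late *HSP30* fell with ethanol by 2.05 in limma (standard error 0.39, adjusted p = 0.018), or -1.68 relative to the median of all ORFs. The late difference minus that of 1 h was -3.15 (standard error 0.56, adjusted p = 0.00497 from limma), and this call kept its side of the threshold in all 5 alternatives. For this change 14.6% of 5869 ORFs were called lower and 4.38% higher. Without ethanol *HSP30* rose late over 1 h by 1.72 (standard error 0.37, adjusted p = 0.0113 from limma). Its differences of 1.99 in CECT10094 and 1.45 in Temohaya-MI26 were inside the limits. In that test 22.7% of 5954 ORFs were higher and 4.75% lower, and the median estimate of all ORFs was 0.52. In ethanol the late samples stood lower than those of 1 h, by -1.78 and -1.07, with a common change of -1.43 (standard error 0.37, adjusted p = 0.0949). Under quantile normalization it was -1.81 and passed (adjusted p = 0.0359, with a range of 0.0359 to 0.0915). Only 0.383% of 5999 ORFs were called lower there.

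Values of whole chromosome arms differed between the late samples. *HSP30* and *PMP1* are on the right arm of chromosome III with 3 measured ORFs between them, and *YRO2* is on the right arm of chromosome II. In late CECT10094 the median of the III right arm exceeded that of its column by 0.10 with ethanol and 0.29 without it, and in late Temohaya-MI26 by 0.18 and 0.75. For the II right arm the late excess was 0.13 with ethanol and 0.40 without it in CECT10094, and 0.19 and 0.61 in Temohaya-MI26. The arms of *PMA1*, *PMA2*, *PMP2* and *MRH1* stayed between -0.15 and 0.21. With columns centred on their medians the late *HSP30* change was -1.73 (adjusted p = 0.0246). With each arm centred on its own median it was -1.34 and lost its call (adjusted p = 0.0518, with a range of 0.00598 to 0.0518 over 6 alternatives). The part of the arm in this gene's values was not tested. Its difference in late Temohaya-MI26 became -1.33 and no longer passed the limit. The rise without ethanol became 0.85 (adjusted p = 0.0795) and, under quantile normalization, 1.07 (adjusted p = 0.105, with a range of 0.00709 to 0.105). Among the measured ORFs of the 5 positions on each side of *HSP30*, the late difference ran from -1.87 to 0.60 in Temohaya-MI26 (7 ORFs), above that of *HSP30*, and from -2.69 to 0.16 in CECT10094 (10 ORFs), where at least 1 lay lower.

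**Figure D4:**
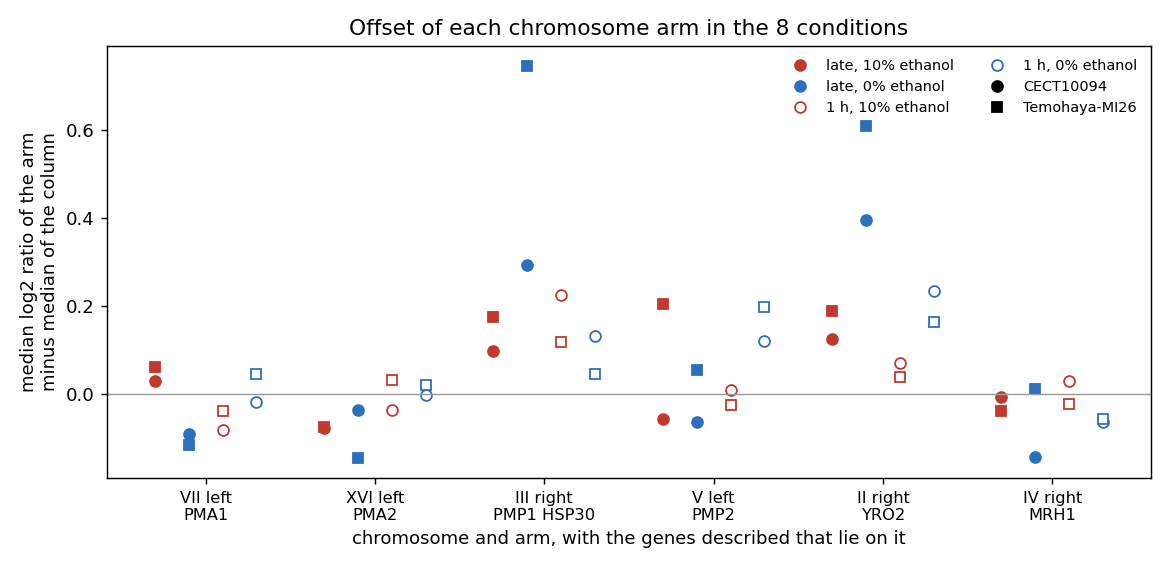
Median log2 ratio of each chromosome arm minus that of its column (vertical axis) for the arms that carry the 7 genes, late samples filled, 1 h samples open, 10% ethanol red, 0% blue, CECT10094 as circles and Temohaya-MI26 as squares. The late samples without ethanol stand highest on the right arms of chromosomes III (0.29 and 0.75) and II (0.40 and 0.61).

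*YRO2* had the widest range of the set, 3.42 over the 8 columns, wider than that of 95.8% of ORFs. Both ends of this range are 1 h values of Temohaya-MI26, among those that chose the gene. Its rank is therefore not independent of the choice and is a description only. At 1 h *YRO2* had -0.64 with ethanol and -0.70 without it in CECT10094. In Temohaya-MI26 it had 0.67 with ethanol and -2.76 without it, its highest and its lowest value. The differences were therefore 0.06 in CECT10094 and 3.42 in Temohaya-MI26, the 1 gene of the set called higher there, beside 2.74% of ORFs. *MRH1* had -0.86 with ethanol and 0.10 without it in CECT10094, and -0.01 and -1.93 in Temohaya-MI26. Its differences were -0.96 and 1.93, of opposite sign and both inside the limits. For both *YRO2* and *MRH1* the lowest 1 h sample was Temohaya-MI26 without ethanol. The small *YRO2* difference in CECT10094 had no stable sign, with -0.31 when columns were centred on their medians. *PMP2* at 1 h and *PMA2* late also had opposite signs in the strains as deposited, as did 30.6% of 5814 ORFs at 1 h and 30.3% of 5474 late, but with columns centred both strains had the same sign (*PMP2* -0.03 and -0.53, *PMA2* 0.47 and 0.85). The 1 h values of *YRO2* and *MRH1* are those on which these genes were chosen, and no test was made of them. The opposite signs of *PMP2* and *PMA2* were not tested either.

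Late, both genes were higher with ethanol in both strains. *YRO2* had 0.15 with ethanol and -1.54 without it in CECT10094, and -0.93 and -2.14 in Temohaya-MI26. *MRH1* had 0.85 against -1.04 in CECT10094, and -0.73 against -1.43 in Temohaya-MI26. In CECT10094 the differences of 1.69 for *YRO2* and 1.89 for *MRH1* passed the limit of 1.23, as did 2.76% of 6008 ORFs, while 2.85% were called lower. In Temohaya-MI26 those of 1.21 and 0.69 lay under the limit of 1.25. *YRO2* was called higher there when chromosome arms were centred (1.81) and under quantile normalization (1.36). At its deposited value it was also called with limits from the median absolute deviation and with a fixed limit of 1. The common change did not pass the test for *YRO2* (1.45, standard error 0.61, adjusted p = 0.16 from limma) or for *MRH1* (1.29, standard error 0.58, adjusted p = 0.182), and in no alternative did either pass it. Their standard errors were the widest of the set. The fit gives each gene 1 spread over both stages. The 1 h values that chose *YRO2* and *MRH1* thus enter these late tests, which are not independent of the choice. Not passing them does not show that the late levels were equal.

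Gaps between the strains, CECT10094 minus Temohaya-MI26, averaged near 0 for the pump and proteolipid genes. In the limma test of these gaps the 4 conditions serve as the repeats, with 1 isolate per strain. The spread of a gene has 3 degrees of freedom there, drawn towards a prior with 6.49. Its p sets a gap against its variation over the conditions, and not against the spread of cultures or isolates. Over the 4 conditions the mean gap was 0.09 for *PMA1* (standard error 0.24), -0.19 for *PMA2* (standard error 0.25), -0.08 for *PMP1* (standard error 0.21) and 0.06 for *PMP2* (standard error 0.25), each with an adjusted p of 0.999 in limma. For *HSP30* it was -0.65 (standard error 0.26, adjusted p = 0.776). *HSP30* stood lower in CECT10094 in 3 of 4 conditions, with gaps of -1.25 at 1 h without ethanol, past the limit of -1.08 as were 2.86% of ORFs, -0.72 late without it and -0.66 late with it, and 0.04 at 1 h with it. In this test 0.0166% of 6013 ORFs were called higher in CECT10094 and 0.0665% lower.

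*YRO2* and *MRH1* had the widest gaps of the set in 3 of 4 conditions, late without ethanol being the exception, and the sign turned with ethanol at 1 h. With ethanol at 1 h the gaps were -1.31 for *YRO2*, past its limit of -0.93 as were 2.66% of 5939 ORFs (2.53% were called higher), and -0.85 for *MRH1*. Without ethanol at 1 h they were 2.05 and 2.04, both past the limit of 0.82, as were 2.26% of 5974 ORFs. Late they were 1.08 and 1.58 with ethanol, where *MRH1* passed the limit of 1.09 with 2.32% of 5811 ORFs (2.96% were called lower), and 0.60 and 0.39 without it, where none of the set was called beside 2.95% higher and 2.47% lower of 5593 ORFs. The 1 h gaps are those that chose the genes, and the late gaps have 1 column on each side and were not tested.

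**Figure D5:**
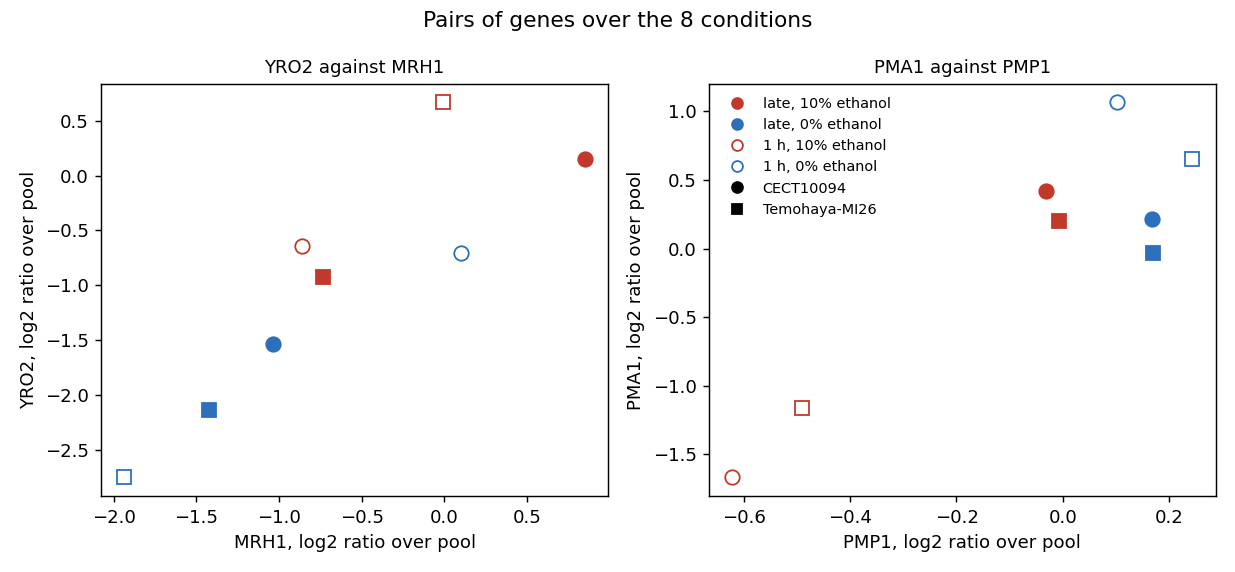
Log2 ratio to the pool of *YRO2* against *MRH1* and of *PMA1* against *PMP1*, 1 point per condition, late filled, 1 h open, 10% ethanol red, 0% blue, CECT10094 as circles and Temohaya-MI26 as squares. *YRO2* and *MRH1*, whose open 1 h points are among the values that chose them, have r = 0.88, while for *PMA1* and *PMP1* (r = 0.90) both 1 h samples with ethanol stand far from the other conditions.

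Across the 8 columns, which all share the pool and so are not independent, the set fell into groups by Pearson correlation, given as a description. *YRO2* and *MRH1* had r = 0.88 and a rank correlation of 0.83, which include the 1 h values that chose both genes and so support nothing about the pair. *PMA1* had r = 0.84 with *PMA2* and 0.90 with *PMP1*, but rank correlations of 0.45 and 0.57, as the 1 h samples with ethanol lie apart in these pairs. *PMP2* had r = 0.10 with *PMA1* and 0.68 with *HSP30*. *HSP30* ran against *MRH1* (r = -0.66) and *PMA1* (r = -0.51), and *PMP1* against *YRO2* (r = -0.69). Among 4621 other named ORFs with all values, the closest to *PMA1* were *EGD1* (r = 0.96), which encodes a subunit of the nascent polypeptide-associated complex, and the ribosomal protein genes *RPS28B* (0.96) and *RPS8B* (0.96). *PMA2* was closest to the glucose transporter gene *HXT3* (0.94), the histone gene *HTA1* (0.94) and *VOA1* (0.92), which helps to assemble the vacuolar ATPase. *PMP1* was closest to *STT3* (0.96), a subunit of oligosaccharyltransferase, and *PMP2* to *NST1* (0.995), *TAF6* (0.99) and *USO1* (0.99). *HSP30* was closest to *NGL3* (0.97), *ASK1* (0.95) and *KIP1* (0.95), of which *ASK1* and *KIP1* act at the spindle. *SKP1*, a subunit of SCF ubiquitin ligases, was the closest to both *YRO2* (0.94) and *MRH1* (0.85), followed by the Hsp90 co-chaperone gene *SBA1* (0.92) for *YRO2*. The rest of the 3 nearest were *TMN3* (0.95) and *PRP38* (0.95) for *PMP1*, *STB6* (0.91) for *YRO2*, and *ARF2* (0.81) and *ABF2* (0.80) for *MRH1*. With ranks in place of values, none of these 3 nearest names was shared for *PMA1*, *PMA2*, *PMP1* and *PMP2*, and 1 each for *HSP30*, *YRO2* and *MRH1*.

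Of the genes that act on Pma1p, *AST2*, a relative of the Pma1p targeting gene *AST1*, fell at 1 h as the pump genes did. Its difference was -2.37 in CECT10094 and -3.02 in Temohaya-MI26, and its common change -2.69 (standard error 0.40, adjusted p = 0.00155 from limma). *AST1* had -0.51 and -0.24. *GLC7*, a protein phosphatase gene, had 1.24 and 0.73 at 1 h, and late it fell by 1.42 (standard error 0.37, adjusted p = 0.0425), with -1.83 and -0.999. *YCK2*, which encodes a casein kinase of the plasma membrane, had -0.31 and -0.38 at 1 h. Over this list of kinases, phosphatase, transcription and traffic factors, 1 of 10 tested genes fell and none rose at 1 h in limma, and likewise late. Beside these and the list counts that follow stand the shares of all ORFs, 10.5% higher and 6.94% lower at 1 h and 0.815% and 7.01% late, and 1 of 10 is near them. The list's median stood -0.11 and -0.14 from that of all ORFs at 1 h. The limma calls of listed genes, here and below, were not repeated under the alternatives. The number of all ORFs called lower late followed the scaling, with 413 as deposited, 155 with arms centred and 29 under quantile normalization.

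Of 14 other P-type ATPases tested, 2 rose and none fell at 1 h, counts near the shares of all ORFs, and none rose and 3 fell late. *PCA1*, a cadmium exporting ATPase, had 2.48 and 1.34 at 1 h (common change 1.91, standard error 0.39, adjusted p = 0.0072), and late it fell by 1.63 (adjusted p = 0.0309). The sodium pump genes *ENA2* and *ENA5*, whose near-identical copies may share signal, differed at 1 h, with -0.71 for *ENA2* and 1.30 for *ENA5* in CECT10094, and -1.61 for *ENA2* and 0.33 for *ENA5* in Temohaya-MI26. *ENA2* had a common change of -1.16 at 1 h that did not pass (standard error 0.37, adjusted p = 0.0551). *ENA5* fell late by 1.58 (adjusted p = 0.0324 from limma). *DNF3*, a lipid flippase gene, had -0.25 and -2.24 at 1 h. Of 14 tested subunits of the vacuolar proton ATPase, none passed in either direction at either stage. By the limits 2 of 14 were called higher in late CECT10094 and 0 lower, beside 2.76% and 2.85% of 6008 ORFs. These were *VMA10* and *VMA8*, with 1.65 and 1.41, against 0.40 and -0.20 in Temohaya-MI26. *VMA2* and *VMA6* had -1.82 and 0.94 in late CECT10094, and -0.75 and -0.31 in late Temohaya-MI26.

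Of 16 tested genes of potassium, sodium and pH balance, 2 rose at 1 h, near the share of all ORFs, and 1 late. *VHS3*, an inhibitor of the Ppz phosphatases, had 1.66 and 1.34 at 1 h (common change 1.50, standard error 0.35, adjusted p = 0.0139 from limma), and the repressor gene *NRG1* had 1.11 and 1.36. *SAT4*, a kinase that stabilises potassium transporters, rose late by 1.57 (standard error 0.41, adjusted p = 0.0425), with 2.32 in CECT10094 and 0.82 in Temohaya-MI26. *CRZ1*, the calcineurin-dependent transcription factor, had 1.01 and 0.06 late.

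Among 12 tested genes of weak acid export and of Haa1p, the regulator of *YRO2*, 4 rose and 1 fell at 1 h, against 10.5% and 6.94% of all ORFs, and 1 rose late. *SPI1*, a wall protein gene, rose by 3.98 at 1 h (standard error 0.38, adjusted p = 0.000256 from limma), and *GRE1*, which encodes a hydrophilin, by 2.67 (standard error 0.49, adjusted p = 0.00452), with 3.82 in Temohaya-MI26 and 1.51 in CECT10094. *YGP1*, a secreted glycoprotein gene, is 1 of the 4 from CECT10094 alone, since its 1 h difference is missing in Temohaya-MI26, and it rose late by 2.54 (standard error 0.41, adjusted p = 0.0133). *TPO2*, a polyamine exporter gene, fell at 1 h by 1.15 (standard error 0.36, adjusted p = 0.0499) and had 1.55 and 1.02 late. Genes of the eisosome and of the membrane domain of Can1p, a patch of the membrane from which Pma1p is absent, gave 5 that rose and none that fell of 12 at 1 h, against 10.5% and 6.94% of all ORFs. For *LSP1*, 1 of the 5, the value is that of CECT10094 alone, as its 1 h difference is missing in Temohaya-MI26. They included *NCE102* (2.40, standard error 0.37, adjusted p = 0.00188), *FMP45* (2.22, adjusted p = 0.00273) and the eisosome core gene *PIL1* (1.93, adjusted p = 0.00901). *PUN1* had 1.01 and 1.72. The list's median stood 0.63 above that of all ORFs in CECT10094 and 0.24 above it in Temohaya-MI26 at 1 h. Late, 1 of these fell and none rose.

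General stress and glucose-repressed genes were taken as a view of the state of the cultures. Both lists were chosen with earlier results of these data known. The study names *HSP12*, *HSP26*, *DDR2*, *ALD3* and *SOL4* as raised early in 1 or both strains. The stress gene counts at 1 h are therefore a description and not independent of those results. At 1 h 11 of 12 tested stress genes rose and none fell, against 10.5% and 6.94% of all ORFs, with a list median 1.95 above that of all ORFs in CECT10094 and 2.77 above it in Temohaya-MI26, and late 1 rose and 2 fell. *HSP12* had 4.10 and 6.40 at 1 h, and late -0.41 in CECT10094 and 2.69 in Temohaya-MI26. By the limits, 1 of 12 measured stress genes was called higher and 0 lower in late CECT10094, beside 2.76% and 2.85% of 6008 ORFs. In late Temohaya-MI26 3 of 13 were called higher and 1 lower, beside 3.04% and 2.51% of 5498 ORFs. Of 12 tested glucose-repressed genes, 2 rose and 1 fell at 1 h, and none rose and 1 fell late, counts near the shares of all ORFs. These counts are of changes common to both strains, and late the strains differed. The late list median stood -0.55 from that of all ORFs in CECT10094 and 0.36 from it in Temohaya-MI26. By the limits, 0 of 12 were called late in CECT10094. In late Temohaya-MI26 2 of 11 were called higher and 1 lower, beside 3.04% and 2.51% of 5498 ORFs. *ACS1*, an acetyl-CoA synthetase gene, had 5.21 and 5.66 at 1 h, and *SUC2* had 2.51 and 1.695. The gene that fell at 1 h was *MLS1*, with -1.47 in CECT10094 and -1.91 in Temohaya-MI26 (common change -1.69, adjusted p = 0.0107 from limma). The glucose transporter gene *HXT7* had -1.51 in CECT10094 and 1.65 in Temohaya-MI26 late. The part of these states in the values of the pump and *HSP30* genes was not tested.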

How the data were processed

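The deposited values are log2 ratios of Cy5 over Cy3. The authors scanned spotted arrays, removed flawed spots by hand, subtracted a global background in GenePix Pro 6.0, normalized the ratios in Acuity 4.0 and combined 3 slides by their median where at least 2 had a value, which hides the spread of the slides. A second deposited table holds only the authors' comparisons of 10 with 0% ethanol and was not used. Of 6154 entries 2 controls were left out, and 5653 of 6152 ORFs matched the RefSeq annotation by locus tag. Chromosome arms follow from ORF names. No further normalization was applied.

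Single-strain limits held 95% of a normal distribution, as in the study's methods, whose false discovery rate needs separate slides. Linear models across all 8 columns were made in limma 3.58.1 (R 4.3.3), with each strain and stage as a block for ethanol effects, and with strain as a block and each condition as a term for effects of stage and strain. ORFs with no residual degree of freedom were left out, an ORF missing in 1 strain at a stage kept the other strain's value, and the Benjamini-Hochberg adjustment ran over every ORF tested. The code was tested on simulated data. Genes and lists were chosen with earlier results of these data known. The genes named were the 7 genes, up to 4 of each list by distance from the median of all ORFs, and the 3 ORFs nearest each gene by Pearson correlation. Of the listed names, 4 matched no ORF and were not analysed here. Alternatives were limits from the median and the scaled median absolute deviation, limits that hold 99% of a normal distribution or a fixed difference of 1, columns centred on medians, quantile normalization, ORFs with all values, centring within chromosome arms, a robust prior, another block and ranks.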

Additional observations from a re-analysis of the deposited data

Results flagged for a closer look

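In 3 cases the strains moved in opposite directions with ethanol, as did 30.6% of 5814 ORFs at 1 h and 30.3% of 5474 late. With columns centred on their medians only that of *MRH1* keeps opposite signs (-1.33 and 2.02), while *PMP2* (-0.03 and -0.53) and *PMA2* (0.47 and 0.85) do not, and *YRO2* at 1 h gains them (-0.31 and 3.51). These differences were not tested, since each strain has 1 column per condition. *MRH1* had -0.96 in CECT10094 and 1.93 in Temohaya-MI26 at 1 h, values that were among those on which it was chosen. *PMP2* had 0.34 and -0.62 at 1 h, and *PMA2* had -0.01 and 0.67 late.

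For 2 genes the difference with ethanol differed between late and 1 h by limma. In that test 4.38% of 5869 ORFs were called higher and 14.6% lower, and the median estimate of all ORFs was -0.60. For *PMA1* the late difference exceeded that of 1 h by 2.50 (standard error 0.52, adjusted p = 0.00943), in CECT10094 with 0.21 late against -2.73 at 1 h and in Temohaya-MI26 with 0.23 against -1.82. For *HSP30* the late difference minus that of 1 h was -3.15 (standard error 0.56, adjusted p = 0.00497), in CECT10094 with -2.03 late against 1.74 at 1 h and in Temohaya-MI26 with -2.08 against 0.45.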

How the results depend on the processing

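Of the values of the 7 genes under the alternatives, 330 kept their side of the limit or threshold, 26 passed it newly, 12 lost it. Among called values 0 changed sign, and among values not called 19 did, which belong to 7 values of *PMA2*, *PMP1*, *PMP2* and *YRO2*. The number of the 7 genes past the limits moved as follows. The shares of all ORFs past these other limits are not given here, so the counts describe the settings and not the genes. A fixed limit takes no account of the median of all ORFs, which was -0.51 in late CECT10094. With limits that hold 99% of a normal distribution 1 was lower in CECT10094 at 1 h, 1 higher in CECT10094 late and 0 lower in Temohaya-MI26 late. With the median and median absolute deviation, 2 were higher and 1 lower in Temohaya-MI26 at 1 h, and 1 was higher and 2 lower late. At a fixed difference of 1, 1 was higher in CECT10094 at 1 h and 2 lower late, and in Temohaya-MI26 2 were higher and 1 lower at 1 h, and 1 higher and 2 lower late. Under quantile normalization 1 was lower in CECT10094 and 1 higher in Temohaya-MI26 late, and with arms centred 1 was higher in Temohaya-MI26 late. The cause was not tested.

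Counts of all ORFs in limma followed the scaling, and the cause was not tested. With columns centred on their medians, 633 were lower at 1 h with ethanol, 126 higher and 250 lower late, 515 higher and 527 lower for the late minus 1 h ethanol change, 762 and 593 late over 1 h without ethanol, and 121 and 35 in ethanol. Under quantile normalization the counts were 29 lower late with ethanol, 403 higher and 302 lower for the change between stages, 96 and 177 late over 1 h without ethanol, 158 and 59 in ethanol, and 0 and 0 for the strain gap. With arms centred they were 83 higher and 155 lower late with ethanol, 499 and 479 for the change between stages, 715 and 584 late over 1 h without ethanol, 119 higher in ethanol and 0 higher for the strain gap. With strain alone as a block, 29 were higher and 232 lower late with ethanol. With ORFs measured in all 8 columns, 37 were lower late over 1 h in ethanol and 2 higher for the strain gap. Without these changes the counts were, higher and lower, 622 and 410 at 1 h, 48 and 413 late, 257 and 857 for the change between stages, 1352 and 283 late over 1 h without ethanol, 74 and 23 in ethanol, and 1 and 4 for the strain gap.

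By ranks, 0 of the 3 nearest ORFs were shared for *PMA1*, *PMA2*, *PMP1* and *PMP2*, and 1 for *HSP30*, *YRO2* and *MRH1*. No paired analysis was possible because each condition has 1 column and the labels carry no replicate numbers, so that the blocks used were strain and stage, and for the same reason no replicate was left out.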

Other observations

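*EGD1*, whose pattern was the closest to that of *PMA1*, lies next to *PMA2* on chromosome XVI in the RefSeq order. Over the 8 columns it had r = 0.96 with *PMA1* and 0.79 with its neighbour *PMA2*. Its differences with ethanol were -2.59 in CECT10094 and -2.34 in Temohaya-MI26 at 1 h, and -0.42 and 0.65 late. The ORFs near *PMA1* had 1 h differences between -0.39 and 1.11 in CECT10094 and between -0.97 and 2.69 in Temohaya-MI26 (10 ORFs), all above those of *PMA1*.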
